A study of Mus musculus with 4 samples.

Results

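A set of 100 genes had a lower transcript level in *rd7* than in wild-type mouse retina, by a margin that held for every library. They were chosen by the measured values themselves: the estimate had to be marked as successful in all 4 libraries, both wild-type values had to reach 1 FPKM, and the larger *rd7* value had to be at most 0.6 times the smaller wild-type value. FPKM is the number of sequenced fragments per kilobase of transcript, scaled to the library's total of mapped fragments. Of 22095 listed loci, 21833 had a successful estimate in every library, 12388 of these had both wild-type values at 1 FPKM or more, and 111 met the limit on the ratio. Of the 111, 11 were left out by name; the names set aside were *Aqp1*, *Hdc*, *Dhrs3* and the symbols of crystallins, globins, potassium channels, collagens, small nucleolar RNAs, microRNAs and ribosomal proteins. Because the genotype difference picked these genes, it is given as a description, and limma values printed for them are no evidence of it.

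The *rd7* mouse lacks normal function of *Nr2e3*, which encodes a nuclear receptor of developing rods, and is labelled *Nr2e3* mutant on C57BL/6J; the controls are C57BL/6J mice labelled wild-type. Both genotypes were sampled at 3 weeks of age. Each genotype has 2 libraries of poly(A) RNA, and a library was made from the 8 retinas of 4 mice with males and females in equal number, so replicates are pools of animals and single mice cannot be seen. Whole retina was used, so every value below mixes rods, cones, inner neurons, glia and vessels, and fewer cells of a type cannot be told apart from less RNA per cell.

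Nr2e3 acts in newborn rods, where it represses genes of the cone program and, together with Crx and Nrl, raises rod genes. In retinas without its function, photoreceptors keep rod features and express many cone genes as well. Rods make up most cells of the mouse retina, so rod transcripts dominate its RNA.

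In the mutated gene itself the FPKM was 2493 and 1589 in *rd7* replicates 1 and 2, and 384 and 394 in wild-type replicates 1 and 2. The *rd7* allele is an insertion and not a deletion, so a high level of *Nr2e3* reads does not contradict the label. Depth was similar in the 4 libraries, at an estimated 3.49e+07 to 3.56e+07 reads (inferred from the smallest steps between FPKM values). Together these estimates fall short of the total of mapped reads that the authors state, so estimated read numbers per gene are approximate. Rod transcripts such as *Gnat1* and *Sag* were abundant in every library, as the labelled tissue requires. In a limma fit on log2(FPKM + 0.1) with an FDR of 5%, 1114 of 12655 genes with a mean of at least 1 FPKM were lower in *rd7* (8.8%) and 4755 were higher (37.6%). The median log2 fold change over all these genes was 0.15, so a fall of a given size is larger by that amount against the typical gene. These counts depend on the scaling between libraries: median-ratio scaling gave 2479 lower and 2492 higher genes, quantile normalization 2406 and 2350. Counts given below for families and markers are on the deposited scale, many of them change with the scaling, and each is to be read against these shares of all genes (37.6% higher and 8.8% lower, or 19.7% and 19.6% with median-ratio scaling). Genes of the set on a family list were chosen for being lower.

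All 86 of the 100 genes that reached a mean of 1 FPKM were called lower in that fit, beside 8.8% of all genes tested, which follows from how they were chosen. The other 14, all of low level, were not tested. Both *rd7* values lay below both wild-type values in 19.5% of all genes tested, and the full limit on ratio and level was met by 0.896% of the genes that could meet it.

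The size of the fall varied widely within the set. As a percentage of the wild-type mean, the *rd7* mean had a median of 42.5 and ran from 4.04 in *Zan* to 58.2 in *Tgm4*. The readthrough locus *Zfp91-Cntf*, whose values are uncertain and are given with its neighbours, is set aside from this range and counted in the other totals. In 79 of the 100 genes the *rd7* mean was at most 50% of the wild-type mean, and in the other 21 it was above, so a description of the whole set as halved holds for the 79. The larger *rd7* value was at most 0.5 times the smaller wild-type value in 52 genes, at most 0.4 times in 27, at most 0.3 times in 10 and at most 0.2 times in 7.

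Genes on either side of the limit of 0.6 differ little in ratio. Just inside it, *Tgm4* (ratio 0.598) was at 2.50 and 2.60 FPKM in *rd7* replicates 1 and 2 and at 4.35 and 4.42 in wild-type replicates 1 and 2, the order kept below. *Lrig1* (0.596) was at 3.42 and 4.02 FPKM in *rd7* and 6.74 and 6.97 in wild-type, and *Gm7609* (0.595) at 5.03 and 4.61 in *rd7* and 8.46 and 8.77 in wild-type. Just outside it, *Hist1h2ac* (0.602) was at 0.541 and 0.786 FPKM in *rd7* and 1.31 and 1.398 in wild-type, and *Ctxn1* (0.604) at 9.73 and 7.40 in *rd7* and 16.1 and 16.9 in wild-type. The third, *Slc24a1* (0.602), is given with the rod genes.

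**Figure D1:**
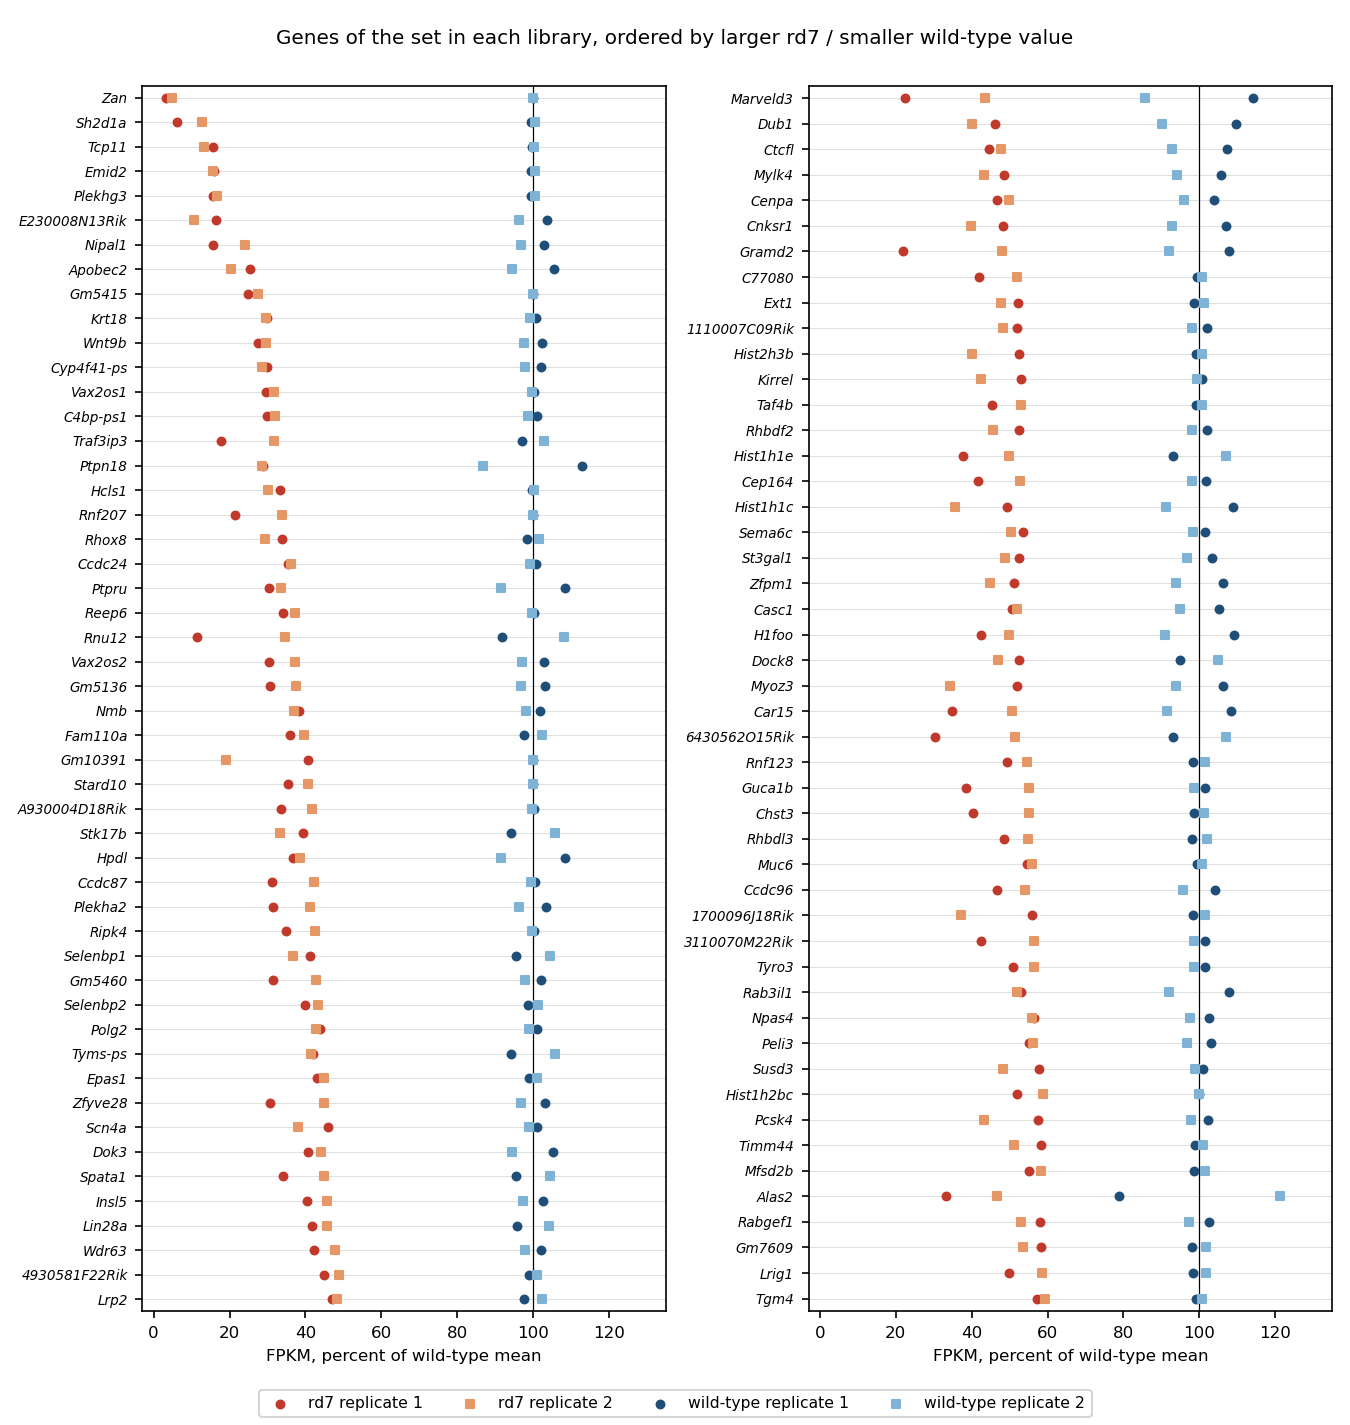
FPKM of the named genes of the set in the 4 libraries, as a percentage of that gene's wild-type mean (horizontal axis), with genes ordered from the lowest ratio of the larger *rd7* to the smaller wild-type value. Red and orange points are *rd7* replicates 1 and 2, dark and light blue points are wild-type replicates 1 and 2, and the vertical line marks the wild-type mean; *Zfp91-Cntf* is left out, and the *rd7* means run from 4.04% in *Zan* to 58.2% in *Tgm4*.

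Most of these genes were of low or middle level. The wild-type mean was between 1 and 2 FPKM in 19 genes, between 2 and 5 in 31, between 5 and 20 in 29, between 20 and 100 in 16, and at least 100 in 5 (*Guca1b*, *Reep6*, *Rabgef1*, *Hist1h2bc* and *Susd3*). The median was 5.17 FPKM, against 9.73 over all genes tested. A read estimate could be made for 92 of them, and among these only *Myoz3* fell under 20 estimated reads in a library, with 11. Genes without an annotated exonic length, *Rnu12* and *Gm5136* among them, have no estimate, so low read numbers there would not be seen.

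**Figure D2:**
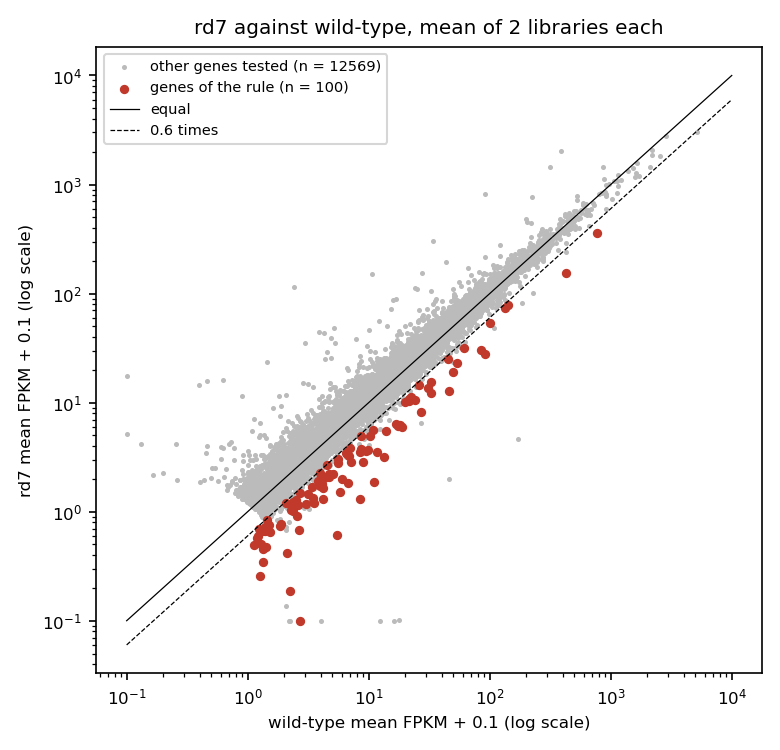
Mean FPKM + 0.1 of *rd7* (vertical) against wild-type (horizontal), both on log axes, for the 12655 genes tested and the 100 genes of the set (red). The solid line marks equal values and the dashed line 0.6 times the wild-type mean; the red points start at a wild-type mean of 1.02 FPKM and end at 769, all below the dashed line, and grey points below it missed a condition of the choice or were left out by name.

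The wild-type pools agreed closely on these genes and the *rd7* pools less so. The median absolute log2 difference between wild-type pools was 0.06 in the set and 0.06 over all genes tested. Between *rd7* pools it was 0.18 in the set and 0.10 over all genes tested. The *rd7* mean of the set had a median of only 1.96 FPKM, while the wild-type mean over all genes tested had a median of 9.73. Differences between pools were not compared at matched level. *rd7* replicate 2 was above replicate 1 in 62 of the 100 genes, and in 47.6% of all genes tested. With *Zfp91-Cntf* set aside, the *rd7* pools differed by more than 1.5 times in 12 of 99 genes: replicate 2 was the higher in 8, *Sh2d1a*, *Nipal1*, *Traf3ip3*, *Rnf207*, *Rnu12*, *Marveld3*, *Gramd2* and *6430562O15Rik*, and replicate 1 in *E230008N13Rik*, *Gm10391*, *Myoz3* and *1700096J18Rik*. Only *Alas2* differed that much between wild-type pools.

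The sequence just upstream of these genes was examined next, because letters bound by photoreceptor factors are a feature that the choice of genes did not use. RefSeq promoter windows on GRCm38.p6 (from 250 bases before a transcript start to 50 after it) were found for 74 of the 100 genes, which share 73 RefSeq gene symbols. The other 26 genes, among them *Reep6* and *Guca1b*, have no entry in the table. The windows of 4 genes whose values are given below are printed, 5′ to 3′ on the gene's strand, with every match to a searched motif in capitals. All 4 printed windows hold a match, while many windows of the set hold none. *Rabgef1* (chr5:130186930-130187229, plus strand, 1 of its 3 windows) holds TAATCC, the letters of a Crx site, starting 25 bases before the start. Its other windows, which lie upstream, hold none of the searched motifs. *Krt18* (chr15:102027966-102028265, plus strand) holds AGGTCA, letters that many nuclear receptors bind, from 108 bases before the start. *Apobec2* (chr17:48432679-48432978, minus strand) holds TATAAA, the letters of a TATA box, from 34 bases before the start and TGCTGAC, letters that Maf factors such as Nrl bind, from base 40 after it. *Hcls1* (chr16:36934733-36935032, plus strand) holds AGGTCA and TATAAA, both on the opposite strand, from 145 and 160 bases before the start.
Rabgef1: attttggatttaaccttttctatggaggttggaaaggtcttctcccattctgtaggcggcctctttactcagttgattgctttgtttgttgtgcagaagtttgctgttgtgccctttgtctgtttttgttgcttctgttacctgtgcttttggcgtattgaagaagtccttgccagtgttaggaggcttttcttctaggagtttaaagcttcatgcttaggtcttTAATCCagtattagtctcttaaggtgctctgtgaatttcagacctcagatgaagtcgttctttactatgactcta
Krt18: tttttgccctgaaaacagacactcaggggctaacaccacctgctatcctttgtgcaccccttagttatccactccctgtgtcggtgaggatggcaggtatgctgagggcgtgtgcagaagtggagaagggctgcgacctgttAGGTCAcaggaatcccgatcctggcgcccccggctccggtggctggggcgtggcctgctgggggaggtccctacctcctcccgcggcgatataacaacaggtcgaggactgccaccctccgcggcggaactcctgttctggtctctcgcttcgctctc
Apobec2: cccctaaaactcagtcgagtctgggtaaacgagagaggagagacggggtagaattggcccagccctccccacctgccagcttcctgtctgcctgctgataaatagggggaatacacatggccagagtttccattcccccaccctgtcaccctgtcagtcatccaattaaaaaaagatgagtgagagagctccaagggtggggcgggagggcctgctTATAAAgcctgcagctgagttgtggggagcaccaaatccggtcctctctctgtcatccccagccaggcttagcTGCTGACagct
Hcls1: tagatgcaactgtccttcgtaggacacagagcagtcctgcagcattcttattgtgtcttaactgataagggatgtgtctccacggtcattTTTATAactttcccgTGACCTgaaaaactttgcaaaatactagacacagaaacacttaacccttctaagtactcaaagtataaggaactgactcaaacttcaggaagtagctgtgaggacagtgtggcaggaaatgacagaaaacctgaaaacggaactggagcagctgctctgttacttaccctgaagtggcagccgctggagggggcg

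The share of genes with each motif is given for the set and for all 27025 RefSeq genes with a window. Both strands were searched, and no motif is contained in another. TAATCC was found in 4 of 73 genes (5.48%), namely *Rabgef1*, *Zan*, *Casc1* and *Wdr63*, and in 8.14% of all genes. AGGTCA was found in 13 (17.8%) and in 18.1% of all genes. CACGTG, the letters of an E-box, was found in 5 (6.85%) and in 8.09% of all. TATAAA was found in 10 (13.7%) and in 15.7%, and TGCTGAC, added after the data were seen, in 4 (5.48%) and in 5.28%. A match is only a run of letters in this window.

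Photoreceptor, cilium and axoneme genes made up 5 of the 100 and held the most abundant members. *Guca1b* encodes GCAP2, which switches on the guanylate cyclase of the outer segment when calcium falls. It was at 296 and 424 FPKM in *rd7* replicates 1 and 2 and at 780.2 and 758 in wild-type replicates 1 and 2, with a log2 fold change of -1.12 ± 0.16 (SE). Replicate 1 was the lower of the *rd7* pools, and both stayed far below wild-type. *Reep6* encodes a membrane-shaping protein of the rod endoplasmic reticulum, whose loss causes retinal degeneration. It was at 147 and 160.4 FPKM in *rd7* and 431 and 429.5 in wild-type, or 35.7% of the wild-type mean. *Cep164*, a distal appendage protein of the centriole that is needed to form a cilium, was at 13.5 and 17.1 FPKM in *rd7* and at 32.9 and 31.8 in wild-type. *Casc1* and *Wdr63*, both linked to axonemal dynein, had wild-type means of 1.15 and 1.11 FPKM and *rd7* means of 0.589 and 0.498.

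Other genes of rod phototransduction were read beside *Guca1b*. Of the 22 listed genes of a rod phototransduction and outer segment list, 20 were tested, 11 were lower (*Guca1b* among them), 3 were higher, and the median log2 fold change was -0.30 (10 lower after quantile normalization, 12 after median-ratio scaling). *Guca1b* is the single one of them that met the limit. In order of wild-type level, *Gnat1* (rod transducin) was at 2710.2 and 3333 FPKM in *rd7* and at 5154 and 5206 in wild-type. *Sag* (rod arrestin) was at 2719 and 2899.6 FPKM in *rd7* and 2791 and 2916 in wild-type, and these values overlap. The call of *Gnat1* was lost with quantile normalization (log2 fold change -0.27). *Pde6g* and *Pdc* had log2 fold changes of -0.46 ± 0.06 and -0.07 ± 0.06, and *Pdc* was called lower with median-ratio scaling (-0.22). *Slc24a1*, the rod sodium, calcium and potassium exchanger, missed the limit narrowly with 225 and 251 FPKM in *rd7* and 418 and 428 in wild-type.

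The REEP family moved apart. *Reep6* fell with a log2 fold change of -1.49 ± 0.06, while *Reep1*, *Reep3*, *Reep4* and *Reep5* were called higher and *Reep2* was not called. *Reep2*, next in wild-type level, was at 46.6 and 40.8 FPKM in *rd7* and 50.1 and 51.0 in wild-type (log2 fold change -0.21 ± 0.07, adjusted p = 0.056 by limma), and was called lower with median-ratio scaling (-0.37) and quantile normalization (-0.35). *Reep5* was at 55.6 and 54.7 FPKM in *rd7* and 41.8 and 45.8 in wild-type. *Reep1* and *Reep4* had log2 fold changes of 0.48 ± 0.06 and 0.94 ± 0.11. *Reep6* alone held most of the family's summed level in wild-type, 431 of 545 FPKM in replicate 1, and the sum was 287 and 289 in *rd7*.

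Lists of cone genes and of photoreceptor factors held no gene of the set. All 10 genes of a cone phototransduction list were tested, 8 were higher and 0 lower, with a median log2 fold change of 1.37 (1 lower with median-ratio scaling). Of 14 photoreceptor transcription factors tested, 9 were higher and 3 lower (median 0.34), and 7 and 5 with median-ratio scaling.

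**Figure D3:**
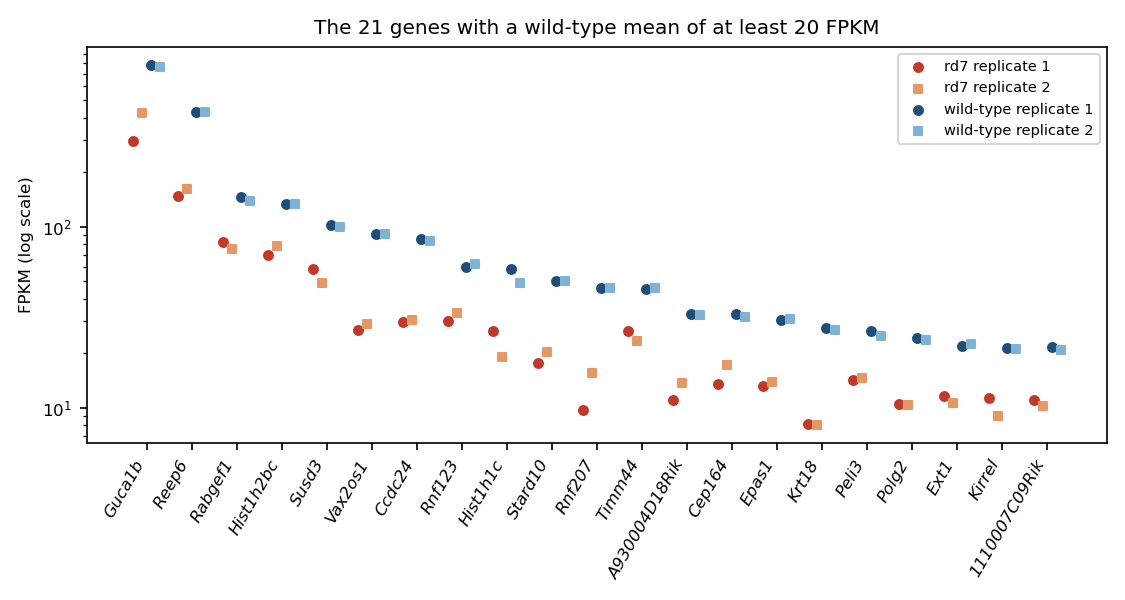
FPKM in each library (vertical, log axis) of the 21 genes with a wild-type mean of at least 20 FPKM, in order of that mean. Red and orange points are *rd7* replicates 1 and 2, dark and light blue points wild-type replicates 1 and 2; in every gene both *rd7* points lie below both wild-type points, from *Guca1b* at 296 to 780.2 FPKM down to *1110007C09Rik* at 10.3 to 21.7 FPKM.

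Genes of membrane traffic, lipid transfer and ubiquitin made up 10, with a median of 43.5% of the wild-type mean. *Rabgef1*, the exchange factor that activates the early endosome GTPase Rab5, was at 81.9 and 75.0 FPKM in *rd7* and 145 and 138 in wild-type. *Rnf123*, a ubiquitin ligase, was at 30.01 and 33.2 FPKM in *rd7* and 59.9 and 61.8 in wild-type. *Rnf207*, a RING finger protein known from heart, was at 9.75 and 15.5 FPKM in *rd7* and 45.7 and 45.6 in wild-type, so its *rd7* pools differed from each other more than its wild-type pools. *Stard10*, which moves phospholipids between membranes, was at 17.6 and 20.3 FPKM in *rd7* and 49.9 and 49.8 in wild-type. *Nipal1*, a magnesium transporter relative, was at 0.190 and 0.296 FPKM in *rd7* and at 1.26 and 1.19 in wild-type. The others were *Gramd2*, *Zfyve28* (an endosomal FYVE protein), *Rhbdl3* and *Rhbdf2* (rhomboid family proteins) and *Rab3il1*, with *rd7* means of 1.38 to 6.30 FPKM and wild-type means of 2.63 to 17.2. Within the START lipid transfer family, 8 genes were tested, 2 were lower (*Stard10* and *Stard7*) and 2 higher. *Stard7*, the most abundant, was at 63.4 and 66.1 FPKM in *rd7* and 81.2 and 86.2 in wild-type, and *Col4a3bp*, *Stard3* and *Stard4* had log2 fold changes of 0.30 ± 0.05, -0.17 ± 0.07 and 0.76 ± 0.09. With median-ratio scaling or quantile normalization *Stard3* was lower as well and *Col4a3bp* was not called.

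Transcription and chromatin genes numbered 9. *Epas1* encodes HIF-2α, a transcription factor that oxygen destabilizes. It was at 13.2 and 13.8 FPKM in *rd7* and 30.4 and 31.0 in wild-type (log2 fold change -1.18 ± 0.05). Its relative *Hif1a* was called higher on the deposited scale, at 123 and 128 FPKM in *rd7* and 100.5 and 104 in wild-type (0.30 ± 0.05, adjusted p = 0.0063 by limma). Of 9 tested genes of this factor, its partners and its prolyl hydroxylases, 4 were higher and *Epas1*, chosen for being lower, was the single lower one, beside 37.6% higher and 8.8% lower of all genes tested. With median-ratio scaling 2 were higher and 2 lower, *Egln2* being the second, and *Hif1a* was not called (0.14, adjusted p = 0.065 by limma). *Egln2* (21.9 and 22.8 FPKM in *rd7*, 22.4 and 22.7 in wild-type), *Egln1* (0.19 ± 0.08) and *Arnt* (0.03 ± 0.05) were not called.

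Histone genes were the largest family among the 9. *Hist1h2bc* was at 69.2 and 78.2 FPKM in *rd7* and 133 and 133 in wild-type, and *Hist1h1c* at 26.5 and 19.0 in *rd7* and 58.4 and 48.9 in wild-type. *Hist1h1e* and *Hist2h3b* had wild-type means of 3.88 and 6.84 FPKM and fell to 43.8% and 46.3% of them. The first 3 lie in the same histone cluster on chromosome 13, and most replication histone transcripts carry no poly(A) tail and are left out by poly(A) selection. The other members were *Zfpm1* (FOG-1, a GATA cofactor), *Npas4* (an activity-induced factor), *Lin28a* (an RNA-binding protein of stem cells) and *Cenpa* (the centromeric histone), with wild-type means of 1.28 to 3.33 FPKM.

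Signalling genes were the largest group with a known role, at 14 and a median of 40.9% of the wild-type mean. *Kirrel*, an immunoglobulin adhesion protein, was at 11.3 and 9.04 FPKM in *rd7* and 21.4 and 21.2 in wild-type. *Plekhg3*, an exchange factor for small GTPases, fell further, with 1.73 and 1.84 FPKM in *rd7* and 10.9 and 11.02 in wild-type, or 16.3%. Secreted ligands in the set were *Nmb* (neuromedin B; 1.57 and 1.52 FPKM in *rd7*, 4.16 and 4.01 in wild-type), *Insl5* (insulin-like 5; wild-type mean 8.50) and *Wnt9b* (0.342 and 0.368 in *rd7*, 1.27 and 1.21 in wild-type). Receptors and phosphatases were *Ptpru* (1.81 and 2.00 FPKM in *rd7*, 6.46 and 5.47 in wild-type), *Ptpn18* (0.382 and 0.376 in *rd7*, 1.49 and 1.15 in wild-type), *Tyro3*, *Sema6c*, *Lrp2* (megalin) and *Lrig1* (an inhibitor of ErbB receptors). *Tyro3*, a receptor kinase of the family that acts in outer segment uptake, had means of 2.94 FPKM in *rd7* and 5.47 in wild-type. *Plekha2*, *Cnksr1* and *Ripk4*, which act inside the cell as adaptors or kinase, had wild-type means of 9.85, 3.06 and 1.02.

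Of 17 immunoglobulin adhesion genes tested, 11 were higher and 4 lower, with a median log2 fold change of 0.32, beside 37.6% higher and 8.8% lower of all genes tested. With median-ratio scaling 8 were higher and 4 lower, beside 19.7% and 19.6%. The 4 lower genes were *Kirrel*, *Igsf9* (-0.66 ± 0.07), *Dscaml1* (-0.38 ± 0.05) and *Ncam1* (-0.20 ± 0.06). *Cadm3* was at 139.5 and 132 FPKM in *rd7* and 83.0 and 88.5 in wild-type, and *Cadm1* at 109 and 96.4 in *rd7* and 68.0 and 70.2 in wild-type. *Cadm4* was not called (0.05 ± 0.05). The other close relative measured above 1 FPKM, *Kirrel3*, was higher (0.26 ± 0.08), a call lost with median-ratio scaling (0.10) and quantile normalization (0.08).

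**Figure D4:**
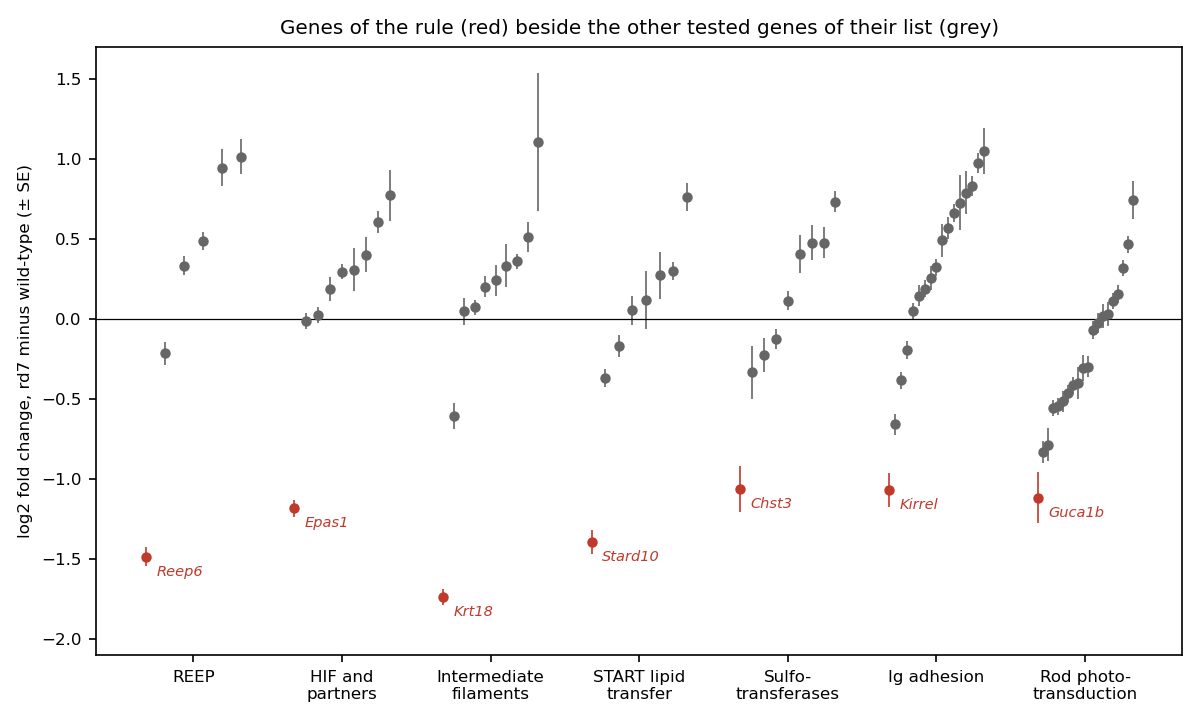
Log2 fold change, *rd7* minus wild-type, with its standard error (vertical) for the tested genes of 7 families; each column is a family, ordered within it by value, red points are genes of the set and grey points the rest. *Reep6* at -1.49, *Epas1* at -1.18, *Krt18* at -1.74, *Stard10* at -1.39, *Chst3* at -1.06, *Kirrel* at -1.07 and *Guca1b* at -1.12 are each the lowest of their column.

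Cytoskeleton, muscle and epithelium genes made up 7. *Krt18*, a type I keratin that forms filaments with *Krt8*, was at 8.11 and 8.06 FPKM in *rd7* and 27.4 and 27.0 in wild-type. *Krt8* was near the lower end of the scale in all libraries, at 0.355 and 0.309 FPKM in *rd7* and 0.224 and 0.173 in wild-type, and was not tested. Of 10 intermediate filament genes tested, 2 were lower (*Krt18* and *Synm*) and 2 higher (*Vim* and *Ina*). The most abundant, *Nefl*, *Nefm*, *Vim* and *Ina*, had log2 fold changes of 0.20 ± 0.07, 0.05 ± 0.08, 0.51 ± 0.09 and 0.36 ± 0.05.

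*Apobec2*, the cytidine deaminase relative of skeletal and heart muscle, was at 3.41 and 2.73 FPKM in *rd7* and 14.1 and 12.6 in wild-type. It is the one gene of its family that reached a mean of 1 FPKM, since *Apobec1* and *Apobec3* were at or below 1.08 FPKM in every library. *Scn4a*, the skeletal muscle sodium channel, had means of 1.68 FPKM in *rd7* and 4.0 in wild-type. *Marveld3* (tight junctions), *Muc6* (a gastric mucin), *Mylk4* (a myosin kinase) and *Myoz3* (a Z-disc protein) had wild-type means of 1.1 to 2.47.

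Mitochondrial and metabolic genes numbered 7, with a median of 41.6%. *Timm44*, part of the motor that pulls proteins into mitochondria, was at 26.5 and 23.3 FPKM in *rd7* and 45.1 and 46.0 in wild-type. *Polg2*, the accessory subunit of the mitochondrial DNA polymerase, was at 10.5 and 10.3 FPKM in *rd7* and 24.2 and 23.8 in wild-type, with little difference between pools. *Selenbp1* and *Selenbp2*, near-identical selenium-binding proteins whose reads may be shared, had wild-type means of 13.8 and 2.52 FPKM and *rd7* means of 5.39 and 1.05. *Car15* (a carbonic anhydrase) and *Hpdl* had wild-type means of 4.63 and 1.77 FPKM and *rd7* means of 1.98 and 0.666.

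Genes of glycans and matrix were 4. *Ext1*, which polymerizes heparan sulphate, was at 11.5 and 10.6 FPKM in *rd7* and 21.8 and 22.4 in wild-type. *Chst3*, which sulphates chondroitin, was at 4.09 and 5.59 FPKM in *rd7* and 9.98 and 10.3 in wild-type; of 9 sulphotransferases of its kind tested, 4 were higher and *Chst3* alone was lower, while with median-ratio scaling 2 were higher and *Chst1* and *Chst12* were lower as well. *Chst1*, *Chst10*, *Chst2* and *Chst12*, the others of highest wild-type level, had log2 fold changes of -0.12 ± 0.06, 0.11 ± 0.06, 0.73 ± 0.07 and -0.22 ± 0.10. *St3gal1*, a sialyltransferase, had means of 10.0 FPKM in *rd7* and 19.8 in wild-type. *Emid2*, a collagen-like EMI domain protein, fell to 15.9%, with 0.322 and 0.315 FPKM in *rd7* and 2.00 and 2.02 in wild-type. Collagens were set aside by symbol only, so *Emid2* stayed in the set.

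Genes best known from germ cells and the reproductive tract made up 10. *Zan* encodes zonadhesin, a sperm head protein, and had the lowest ratio of all genes with a read estimate. It was at 0.0707 and 0.102 FPKM in *rd7* and 2.13 and 2.13 in wild-type, or 4.04%, with an estimated 43 and 61 reads in *rd7* and 1292 and 1297 in wild-type. *Tcp11*, a testis gene, was at 1.31 and 1.1 FPKM in *rd7* and 8.27 and 8.34 in wild-type. *Rhox8*, a reproductive homeobox gene of the X chromosome, was at 1.17 and 1.01 FPKM in *rd7* and 3.41 and 3.51 in wild-type. The group also held *Spata1*, *Pcsk4* (a sperm proprotein convertase), *Tgm4* (prostate transglutaminase), *Taf4b*, *Ccdc87*, *Ctcfl* (the testis relative of CTCF) and *H1foo* (the oocyte linker histone), with wild-type means of 1.22 to 7.03 FPKM. Their RNA was measured in wild-type retina at these levels, and what cell it came from was not measured.

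Genes best known from blood and immune cells also made up 10. *Sh2d1a* encodes SAP, an adaptor of T and natural killer cells, and was at 0.330 and 0.680 FPKM in *rd7* and 5.34 and 5.40 in wild-type, or 9.41%. *Hcls1*, a cortactin relative of blood cells, was at 6.24 and 5.63 FPKM in *rd7* and 18.7 and 18.7 in wild-type. *Traf3ip3*, a lymphocyte adaptor, was at 1.01 and 1.82 FPKM in *rd7* and 5.56 and 5.88 in wild-type. *Peli3*, a ubiquitin ligase of Toll-like receptor signalling, was at 14.2 and 14.5 FPKM in *rd7* and 26.6 and 25.0 in wild-type. *Dok3*, *Stk17b*, *Dock8* (all of lymphocyte signalling), *Mfsd2b* (the red cell exporter of sphingosine 1-phosphate) and *Dub1* (a cytokine-induced deubiquitinase) had *rd7* means of 0.939 to 2.17 FPKM and wild-type means of 2.18 to 4.97.

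Marker lists of T cells and myeloid cells were read beside these genes. Of 8 T cell markers, 2 reached a mean of 1 FPKM, 1 was higher and 0 were lower, and 1 was at 0 in every library. Their summed level was 14.8 and 14.4 FPKM in *rd7* and 12.1 and 11.7 in wild-type, most of it *Cd247* (11.3 and 11.03 in *rd7*, 8.88 and 8.35 in wild-type). Of the defining markers, *Cd3e* was at 0 in all 4 libraries, *Cd3g* and *Cd4* did not exceed 0.0834 FPKM, and *Cd3d* was at 0.385 and 0.352 in *rd7* and 0.528 and 0.777 in wild-type, too low to be tested. Of 6 myeloid markers, 3 were tested, 1 was higher and 0 lower, with sums of 11.6 and 13.2 FPKM in *rd7* and 9.40 and 9.56 in wild-type. The part of these cells in the lower levels was not tested.

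*Alas2*, the first enzyme of haem synthesis in red cell precursors, was at 0.755 and 1.06 FPKM in *rd7* and 1.78 and 2.74 in wild-type, and wild-type replicate 2 was well above replicate 1. Its call was lost without wild-type replicate 2 (log2 fold change -0.92, adjusted p = 0.0712 by limma). It is also the single tested gene of a list of 4 listed erythroid markers, whose summed level was 0.936 and 1.25 FPKM in *rd7* and 1.97 and 2.95 in wild-type, most of it *Alas2*. The part of red cells in this result was not tested.

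In the lists of the other cell types of the dissected tissue, no tested marker was called lower on the deposited scale. With median-ratio scaling *Apoe*, *Th* and *Thy1* were called lower, 1 each for Müller glia, amacrine cells and ganglion cells, and the amacrine list had 0 higher in place of 4. *Th* was at 1.84 and 1.61 FPKM in *rd7* and 1.96 and 2.38 in wild-type (-0.31 ± 0.15, adjusted p = 0.13 by limma on the deposited scale). *Best1*, of the pigment epithelium, was too low to be tested, at 0.11 and 0.0707 FPKM in *rd7* and 0.178 and 0.236 in wild-type. Higher markers numbered 5 of 8 tested for Müller glia, 6 of 8 for bipolar cells, 4 of 6 for amacrine cells, 1 of 7 for ganglion cells, 3 of 3 for horizontal cells, 5 of 6 for pigment epithelium, 2 of 8 for endothelium and 1 of 3 for pericytes, beside 37.6% of all genes tested. With median-ratio scaling the higher markers were 5 for Müller glia, 5 for bipolar cells, 0 for ganglion cells, 2 for horizontal cells, 4 for pigment epithelium, 1 for endothelium and 1 for pericytes, beside 19.7% of all genes tested. Quantile normalization gave the same higher counts except 1 for amacrine cells and 1 for horizontal cells. No marker of these lists was at 0 in all 4 libraries, and summed levels in *rd7* and wild-type were 61.5 to 70.8 and 23.3 to 37.5 FPKM for pigment epithelium. They were 51.7 to 67.9 and 43.1 to 46.0 FPKM for endothelium, and 24.6 to 35.1 and 15.8 to 17.98 for pericytes. The part of these cells in the lower levels was not tested.

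The remaining 24 genes have no assigned function here, and they had the lowest median, at 37.4% of wild-type. *Susd3*, a sushi domain protein, was at 58.1 and 48.6 FPKM in *rd7* and 102 and 99.6 in wild-type. *Ccdc24* was at 29.9 and 30.4 FPKM in *rd7* and 84.8 and 83.6 in wild-type. *A930004D18Rik* was at 10.9 and 13.6 FPKM in *rd7* and 32.7 and 32.6 in wild-type, and *1110007C09Rik* at 11.01 and 10.3 in *rd7* and 21.7 and 20.8 in wild-type. In all 4 of these the pools of each genotype lay close together relative to the gap between genotypes.

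Lower in level were several genes with steep falls. *Gm5415* was at 1.65 and 1.82 FPKM in *rd7* and 6.62 and 6.63 in wild-type, *Cyp4f41-ps* at 1.24 and 1.18 in *rd7* and 4.22 and 4.04 in wild-type, and *C4bp-ps1* at 2.65 and 2.82 in *rd7* and 8.93 and 8.72 in wild-type. *Fam110a* was at 3.36 and 3.70 FPKM in *rd7* and 9.14 and 9.56 in wild-type. *E230008N13Rik* was at 0.190 and 0.125 FPKM in *rd7* and 1.21 and 1.12 in wild-type. *Gm10391*, which has several rows of its symbol in the table and is uncertain for that reason, was at 4.70 and 2.20 FPKM in *rd7* and 11.6 and 11.6 in wild-type. *Rnu12*, a small nuclear RNA of the minor spliceosome, was at 0.292 and 0.878 FPKM in *rd7* and 2.33 and 2.74 in wild-type. Its locus is short (chr15:82980075-82980224 of mm9) and it has no read estimate, so few reads may lie behind these values. The others were *Gm7609*, *6430562O15Rik*, *4930581F22Rik*, *C77080*, *Ccdc96*, *Tyms-ps*, *3110070M22Rik*, *Gm5460* and *1700096J18Rik*, with wild-type means of 2.28 to 8.61 FPKM, and *Gm5136*, *Zfp91-Cntf*, *Vax2os1* and *Vax2os2*, given with their neighbours below.

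An annotation of mm9 (GENCODE vM1) gave 92 of the 100 genes a gene model, of which 87 are protein coding and 5 are not. Exonic GC content had a median of 53.9% in the set and 50.1% over all genes tested, and exonic length a median of 3706 and 3754 bases. Whether GC content had a part in the falls was not tested on its own, and with a correction for GC content and length the values of 76 of the 79 genes of the set given one still met the limit.

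The genes were spread over the chromosomes. The largest numbers were 9 on chromosome 4 and 9 on chromosome 13, where 6.25% and 3.62% of all genes tested lie. On chromosome 13 the 3 histone genes lie together, and *1110007C09Rik* and *Susd3* lie next to each other at chr13:49298320-49311395 and chr13:49326202-49343532 of mm9. Only *Gramd2* (3.79 and 8.28 FPKM in *rd7*, 18.6 and 15.8 in wild-type) lies within 10 Mb of the mutated gene at chr9:59790578-59797886, 226 kb from it, among 159 genes tested there.

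Neighbouring loci matter because the reads carry no strand information as far as the protocol states, so reads on shared bases can be counted to either gene. The locus overlapped another listed locus in 18 of the 100 genes, and 38 more had a neighbour within 5 kb. Exons shared with another gene covered more than 10% of the exonic length in 7 genes: *Car15* (82.0%), *Ccdc24* (67.1%), *Tgm4* (21.1%), *Nmb* (20.6%), *Rnf123* (18.004%), *Plekha2* (15.3%) and *Alas2* (12.9%). That is 7.61% of the annotated genes of the set, and 10.9% of annotated genes tested. Values of these genes are uncertain to that extent.

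Calls on the neighbours outside the set are given beside the 8.8% lower and 37.6% higher among all genes tested, and no difference from these shares was tested. Of 17 tested loci that overlap a gene of the set and are not in it, 5 were called lower (29.4%), 3 higher (17.6%; *Syt1*, and *Cntf* and *Zfp91*, whose values are uncertain) and 9 neither, with a median log2 fold change of -0.04. Of 42 other tested loci within 5 kb, 8 were lower (19%), 9 higher (21.4%) and 25 neither, with a median of 0.03, beside 0.15 over all genes tested. With median-ratio scaling 6 of the 17 and 15 of the 42 were lower (35.3% and 35.7%), beside 19.6% of all genes tested, and 3 and 5 were higher (17.6% and 11.9%), beside 19.7%.

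Some pairs fell together. *Vax2os1* and *Vax2os2* are overlapping noncoding loci at the eye field factor *Vax2* (chr6:83652096-83660926 and chr6:83642800-83662195). *Vax2os2* also overlaps one end of *Vax2* (chr6:83661258-83688298), while *Vax2os1* lies 331 bases from it. *Vax2os1* was at 26.9 and 28.8 FPKM in *rd7* and 90.8 and 90.4 in wild-type, and *Vax2os2* at 5.53 and 6.76 in *rd7* and 18.7 and 17.6 in wild-type. *Vax2* itself was at 11.3 and 11.2 FPKM in *rd7* and 16.3 and 17.4 in wild-type (log2 fold change -0.58 ± 0.06, adjusted p = 0.00166 by limma). All 3 were thus lower, the noncoding loci by more, but reads on bases that they share can be counted to either locus.

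*Reep6* (chr10:79792915-79799186) lies 696 bases from *Pcsk4*, which was at 3.75 and 2.82 FPKM in *rd7* and 6.67 and 6.38 in wild-type, on the opposite strand. *Timm44* lies 456 bases from *Ctxn1* (-0.95 ± 0.13, adjusted p = 0.0034 by limma), and *Hist1h2bc* 239 bases from *Hist1h2ac* (-0.95 ± 0.22, adjusted p = 0.0187). *Rnf123* overlaps one end of *Gmppb* on the other strand, which was at 9.86 and 11.9 FPKM in *rd7* and 18.2 and 19.98 in wild-type (-0.81 ± 0.10, adjusted p = 0.00285 by limma). *Amigo3*, which lies inside the *Rnf123* locus on the other strand, was not called on the deposited scale (-0.22 ± 0.15, adjusted p = 0.275 by limma). *Traf3ip3* overlaps *A130010J15Rik* (-0.66 ± 0.18), *3110070M22Rik* overlaps *Gm7120* (-0.58 ± 0.16) and *Cnksr1* lies 658 bases from *Catsper4* (-0.62 ± 0.09), each called lower.

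Other pairs moved in opposite directions. *Guca1b* (chr17:47522342-47529916) lies 1590 bases from its paralog *Guca1a*, GCAP1, which is read from the other strand. *Guca1a* was at 1272 and 1633 FPKM in *rd7* and 845 and 876 in wild-type (0.74 ± 0.12, adjusted p = 0.00533 by limma), so the order of these activators by level was the same in both genotypes and the gap between them wider in *rd7*. *Stard10* lies 1756 bases upstream of *Arap1* on the same strand, which was at 6.65 and 6.56 FPKM in *rd7* and 3.64 and 3.94 in wild-type (0.79 ± 0.08). *Plekhg3* lies 1448 bases from *Spnb1*, which was at 20.6 and 22.2 FPKM in *rd7* and 12.8 and 13.4 in wild-type (0.70 ± 0.06). *Gm5136* (0.363 and 0.442 FPKM in *rd7*, 1.22 and 1.14 in wild-type) lies inside the much more abundant *Syt1*, which was higher in *rd7* (0.59 ± 0.07).

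*Zfp91-Cntf* is a readthrough locus that spans *Zfp91* and *Cntf* (chr19:12838019-12870613). It was listed at 5.31e-05 and 9.45e-05 FPKM in *rd7* and at 2.69 and 2.49 in wild-type. *Cntf*, a neurotrophic cytokine, was at 3.99 and 5.19 FPKM in *rd7* and 1.09 and 1.56 in wild-type, and *Zfp91* at 28.6 and 28.5 in *rd7* and 22.3 and 22.2 in wild-type. Cufflinks splits reads on shared exons between such loci by estimation, so the values of all 3 loci are uncertain and no fold change is drawn from them.

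Several overlapping neighbours were not called on the deposited scale. *Ccdc24* overlaps *Slc6a9* (-0.01 ± 0.05, adjusted p = 0.843 by limma), *Lrig1* overlaps *Slc25a26* (-0.04 ± 0.09) and *C77080* overlaps *Yars* (0.05 ± 0.05). In each of these pairs the listed loci share only a short end. The gene that shares 67.1% of the exonic length of *Ccdc24* was not identified, so the values of *Ccdc24* stay uncertain. *6430562O15Rik* overlaps *Mrps27* (-0.14 ± 0.06), *Spata1* overlaps *Ctbs* (0.20 ± 0.10), *Gm5415* overlaps *Khdrbs2* (0.42 ± 0.14), and *4930581F22Rik* overlaps *Dcps* (-0.04 ± 0.13) and *St3gal4* (0.14 ± 0.06). *Rnf207* overlaps *Icmt*, which was called lower by a smaller amount (-0.19 ± 0.05). *A930004D18Rik*, *Casc1* and *Hist1h1e* overlap loci with means below 1 FPKM.

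**Figure D5:**
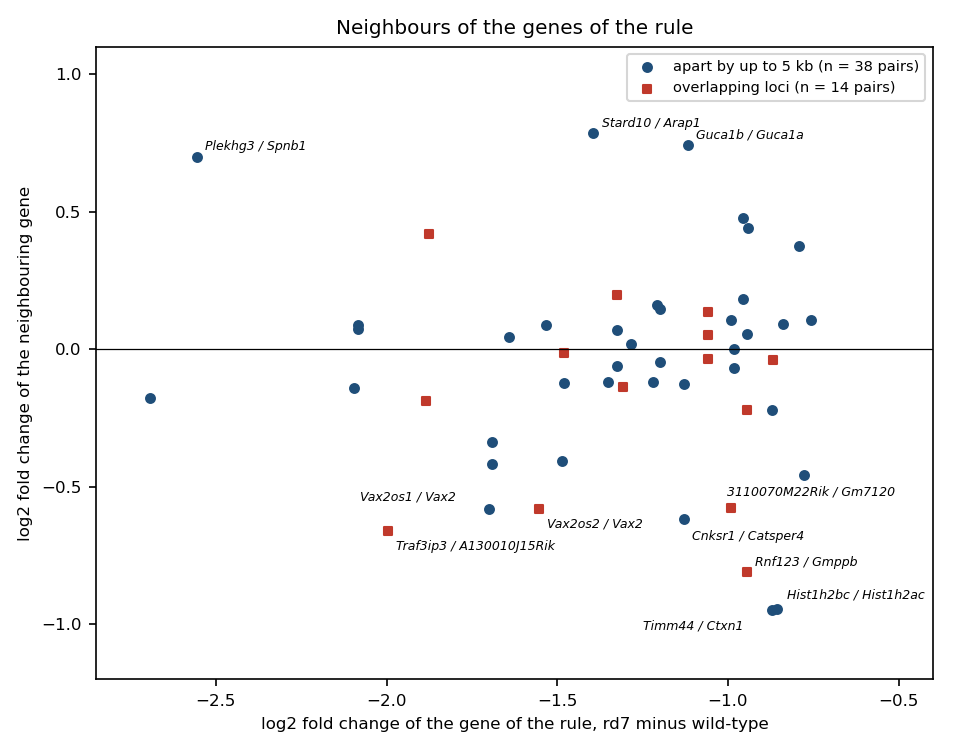
Log2 fold change, *rd7* minus wild-type, of the neighbouring gene (vertical) against that of the gene of the set (horizontal), for pairs in which both were tested and only the first is in the set. Red squares are overlapping loci and blue circles loci up to 5 kb apart, pairs beyond 0.55 in either direction are named, and *Zfp91-Cntf* is left out; *Spnb1*, *Arap1* and *Guca1a* lie at 0.70 to 0.79 and *Ctxn1* at -0.95.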

How the data were processed

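RNA was poly(A)-selected, copied from random hexamers and sequenced as single reads of 50 bases on a single lane. The authors mapped reads to mm9 with TopHat 1.4.1 and deposited FPKM per gene and library from Cufflinks 1.3.0, with a status for each estimate. Their table of Cuffdiff comparisons was not used. No counts were used, and FPKM does not remove differences in library composition. From the deposited FPKM, log2(FPKM + 0.1) was fitted with limma 3.58.1 in R 4.3.3 (variance trend, Benjamini-Hochberg, 5% FDR, mean FPKM of at least 1), 2 *rd7* against 2 wild-type libraries. The step was tested on simulated data, but the outcome is not given here and is no evidence for these values. Fold changes on this scale understate the change of low genes. The genes and all lists were chosen with earlier results of these data known. Groups of function were assigned by hand once the genes were known. Values per library are given for the 30 lowest ratios, wild-type means of at least 20 FPKM, genes on a family list and the 3 genes on each side of the limit. *Krt8*, *Synm*, *Kirrel3*, *Reep3*, *Igsf9*, *Dscaml1*, *Cd247*, *Cd3d*, *Cd3e*, *Cd3g*, *Cd4*, *Best1*, *Th*, *Apoe* and *Thy1* were named after their values were seen. 1 gene of the set is counted in the totals but not reported here by name. Exon models came from GENCODE vM1, promoters from RefSeq (GRCm38.p6). The lists of families held by no gene of the set were MEF2 (4 tested, 2 higher, 2 lower), PFKFB (3, 1, 1), UNC13 (3, 1, 1), phosphoinositide turnover (14, 5, 3), PP2A B'' subunits (3, 1, 0), SGK (1, 0, 0), DLGAP (3, 0, 1), MAST kinases (4, 0, 1), CIDE and TLC lipid genes (7, 3, 1) and Zbtb20 relatives (4, 1, 1). With median-ratio scaling the higher and lower counts were 2 and 2 for MEF2, 0 and 1 for PFKFB, 1 and 2 for UNC13, 2 and 4 for phosphoinositide turnover, 0 and 1 for PP2A B'' subunits, 0 and 1 for SGK, 0 and 2 for DLGAP, 0 and 2 for MAST kinases, 2 and 1 for CIDE and TLC lipid genes and 1 and 2 for Zbtb20 relatives. Alternatives were pseudocounts of 1 and 0.01, no filter or a mean of at least 5 FPKM, median-ratio and quantile scaling, an FDR of 1%, a replicate block, other limits of the choice, leaving out each library and, chosen after seeing the data, a correction for GC content and length of exons.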

Additional observations from a re-analysis of the deposited data

How the results depend on the processing

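The number of genes under the limit was 100 with the deposited FPKM, 164 with median-ratio scaling (all 100 among them), 159 with quantile normalization (86 of the 86 that were given a value), and 124 once GC content and exonic length were corrected for, a step chosen after seeing the data (76 of 79 given a value). A ratio of at most 0.5 left 52 and a wild-type minimum of 5 FPKM left 50. Leaving out each library gave 125 to 168, all 100 included. That all 100 stayed there and with median-ratio scaling was fixed in advance. Leaving out a library can only loosen the limit, and that scaling lowered every *rd7* value and raised every wild-type value. The genes called lower by limma over all genes were 1114, 2479 with median-ratio scaling (2492 higher), 2406 with quantile normalization, 1846 with that correction, 446 at an FDR of 1%, and 224 to 1601 without each library, with the lowest without wild-type replicate 1 and 338 without wild-type replicate 2. The median log2 fold change was 0.15, and -0.0049 with median-ratio scaling. Of the set, 86 of 86 tested were called, 98 of 100 without a filter, 39 of 39 at a mean of at least 5 FPKM, 79 of 79 with the GC and length correction, 81 at an FDR of 1%, and 74 to 86 without each library. Replicate numbers do not pair the libraries (correlation of their deviations -0.03), and with a replicate block 1091 genes were lower and 86 of the set called. The set kept 74 of its 86 calls without wild-type replicate 1 and 80 without wild-type replicate 2. Of 42 genes followed one by one, these lost the call: *Alas2* (adjusted p = 0.0712 by limma without wild-type replicate 2), *Gm10391* (0.0582 without wild-type replicate 1) and *Rnu12* (0.0665 and 0.0699 without wild-type replicates 1 and 2). In those refits the lone library of a genotype is assumed to vary like the other group. Since the same values chose the genes, calls kept under another setting are no sign of stability. The cause was not tested. With 2 pools a group the precision is limited by the number of pools.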
